A study of Mus musculus with 6 samples.

Results

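Cholesterol synthesis was followed through 8 genes, Hmgcs1, Idi1, Fdps, Fdft1, Sqle, Cyp51, Nsdhl and Sc5d, in mouse fibroblasts that carry inducible oncogenes and an activatable IRF-1. Every probe set that the annotation of the array assigns to one of these genes was taken, whatever its value, a probe set being several short probes designed against the same transcript. All 8 genes had at least 1 probe set, 14 in all of the 12488 on the array. Of these, 12 passed the filter on dim probe sets and were tested among 7453, and the 2 that did not pass were Fdps probe sets.

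The cells are NIH3T3, an immortalised mouse fibroblast line. All 3 groups share their genetic changes: c-myc and Ha-ras stably inserted under a Tet-off promoter, which doxycycline keeps silent, and IRF-1, an interferon-induced transcription factor, made constantly as a fusion to a hormone-binding domain that estradiol activates. Each group had 2 arrays: an estradiol group without doxycycline (oncogenes on, IRF-1 active, 48 h of estradiol, 1 mM as the labels give it), a withdrawal group without doxycycline or estradiol (oncogenes on), and a doxycycline group (2 µg/ml, oncogenes off). RNA was extracted with RNeasy for replicate 1 of every group and with TRIzol for replicate 2. The title of doxycycline replicate 2 also names estradiol, while its treatment entry gives doxycycline alone, and it was kept in the doxycycline group. Doxycycline differs between the groups along with the oncogenes, and every group carries the fusion, so an effect of either compound cannot be told apart from that of the oncogenes or of IRF-1.

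Cells build cholesterol from acetyl-CoA in the mevalonate pathway, which also supplies the isoprenoid tails that anchor Ras and other small GTPases to membranes. The enzymes of the pathway are controlled together by SREBP-2, a membrane-bound factor that is released and enters the nucleus when sterols run low and then binds sterol regulatory elements in promoters, with NF-Y at CCAAT boxes nearby. Proliferating fibroblasts need sterols for new membrane, from synthesis or from lipoprotein uptake.

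The promoters of 5 of the 8 genes were matched by symbol to RefSeq sequences (build GRCm38.p6), and the 150 bases before the annotated start are shown because the members are a classic jointly controlled set. Capitals mark matches, on either strand, to TCACCNCA, a form of the sterol regulatory element, and to CCAAT, the box read by NF-Y. The stretches are those of Hmgcs1 (chr13:119690201-119690350, plus strand), Idi1 (chr13:8885456-8885605, plus strand), Cyp51 (chr5:4104698-4104847, minus strand), Nsdhl (chrX:72918371-72918520, plus strand) and Sc5d (chr9:42264301-42264450, minus strand).
Hmgcs1: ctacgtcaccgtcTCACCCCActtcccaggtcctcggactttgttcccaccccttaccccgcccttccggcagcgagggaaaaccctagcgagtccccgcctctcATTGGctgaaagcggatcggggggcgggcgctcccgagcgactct
Idi1: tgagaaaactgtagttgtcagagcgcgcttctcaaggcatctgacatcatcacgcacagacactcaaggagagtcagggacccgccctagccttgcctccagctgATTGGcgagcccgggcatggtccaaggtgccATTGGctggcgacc
Cyp51: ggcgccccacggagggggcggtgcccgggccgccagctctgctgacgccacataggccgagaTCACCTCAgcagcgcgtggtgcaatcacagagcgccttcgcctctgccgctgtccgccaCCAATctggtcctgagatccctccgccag
Nsdhl: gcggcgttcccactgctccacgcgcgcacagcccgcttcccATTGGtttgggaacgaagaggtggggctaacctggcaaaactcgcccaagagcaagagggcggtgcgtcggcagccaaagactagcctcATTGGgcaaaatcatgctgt
Sc5d: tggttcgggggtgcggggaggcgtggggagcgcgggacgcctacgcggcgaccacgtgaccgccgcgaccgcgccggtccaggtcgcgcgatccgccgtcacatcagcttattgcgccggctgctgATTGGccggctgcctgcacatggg

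Over the 250 bases before the start, TCACCNCA was found in 2 of the 5 promoters, those of Hmgcs1 and Cyp51, and in 3.61% of the 32851 promoters of the table. CCAAT was found in 5 of 5, with 3 matches in Hmgcs1, 2 in Idi1, 2 in Nsdhl and 1 each in Cyp51 and Sc5d, against 33.8% of all promoters. GGGCGG, the GC box, was found in 5 of 5 against 32.7%, and CACGTG, the E-box that Myc and its relatives can bind, in 1 of 5, Sc5d, against 6.02%. Both strands were searched and no match overlapped one of another motif. A match describes letters and is not a measured binding site.

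The values are MAS5 signals, the brightness of a probe set on a linear scale whose trimmed means hardly differed between the deposited arrays. Median signals were 49.55 to 52.6. The labelled fibroblast identity was checked on 12 marker genes, whose summed signals were 22990 and 17850 with estradiol, 23390 and 30570 after withdrawal and 33270 and 31590 with doxycycline. The collagen genes Col1a1 and Col1a2 had signals of at least 4211 and 3806.5 on every array, while the 1 probe set of Vim, which encodes vimentin, lay between 5.9 and 40.7. Summed markers were 42.2 to 87.1 for 5 endothelial genes and 69.6 to 110.7 for 5 adipocyte genes with a probe set, and 153.2 to 271.5 for 6 epithelial, 520.3 to 569.7 for 6 macrophage and 137.0 to 229.2 for 5 muscle genes. Similarity between arrays followed the labels only in part. Estradiol replicate 1 and withdrawal replicate 1 were at least 2-fold apart for 16 of the 7453 tested probe sets, estradiol replicates 1 and 2 for 249, withdrawal replicates 1 and 2 for 921, and withdrawal replicate 2 and doxycycline replicate 1 for 324. Nothing in the labels says that replicates were separate cultures, so the tests measure only the spread between these arrays.

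At the entry of the pathway stands Hmgcs1, the cytosolic HMG-CoA synthase, which makes the substrate of the rate-limiting reductase. Its signals were 405.6 and 418.0 with estradiol, 386.9 and 746.9 after withdrawal, and 539.8 and 376.9 with doxycycline. Withdrawal replicate 2 was the highest of the 6 arrays, the groups overlapped, and the other 5 arrays lay between 376.9 and 539.8.

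The isoprenoid steps were read by Idi1 and Fdps. Idi1, the isomerase that interconverts the pathway's pair of 5-carbon building blocks, had signals of 1158.6 and 760.2 with estradiol, 1172.5 and 543.6 after withdrawal, and 1095.3 and 534.3 with doxycycline. In every group the TRIzol array was the lower one, and the 3 RNeasy arrays stood between 1095.3 and 1172.5. Fdps, farnesyl diphosphate synthase, makes the branch-point isoprenoid used for squalene and for farnesylation of proteins such as Ras.

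The brighter tested Fdps probe set, 99098_at, had signals of 5037.3 and 1239.8 with estradiol, 4871.9 and 1228.7 after withdrawal, and 4833.7 and 3778.9 with doxycycline. The other tested one, 160424_f_at, had 2073.0 and 627.4 with estradiol, 2053.4 and 820.3 after withdrawal, and 2141.4 and 2092.1 with doxycycline. Both probe sets thus read 2 arrays, estradiol replicate 2 and withdrawal replicate 2, far below the other 4. Those 4 lay between 2053.4 and 2141.4 in 160424_f_at. In 99098_at doxycycline replicate 2, at 3778.9, also lay below the RNeasy arrays (4833.7 to 5037.3). The suffix _f marks probes shared by a family of similar sequences, so that probe set may read other transcripts as well. The 2 dim Fdps probe sets, 162217_r_at and 162281_at, had signals of 5.0 to 12.4 and of 11.2 to 35.2 over the 6 arrays. They did not pass the filter and are too dim to show such a split or its absence.

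The first steps committed to sterols were read by Fdft1 and Sqle. Fdft1, squalene synthase, had signals of 797.8 and 747.5 with estradiol, 795.8 and 1055.9 after withdrawal, and 1238.1 and 760.3 with doxycycline. Doxycycline replicate 1 and withdrawal replicate 2 were high, and the other 4 arrays lay between 747.5 and 797.8. Sqle, squalene epoxidase, had 2365.1 and 1738.0 with estradiol, 2392.5 and 2000.9 after withdrawal, and 2546.3 and 2344.9 with doxycycline. Its highest signal was 1.47 times its lowest, and each TRIzol array lay below all RNeasy arrays.

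The steps after lanosterol were read by Cyp51, Nsdhl and Sc5d. Cyp51, the lanosterol demethylase, had signals of 309.3 and 269.4 with estradiol, 326.2 and 364.5 after withdrawal, and 276.9 and 297.4 with doxycycline, with a highest-to-lowest ratio of 1.35. Both withdrawal arrays lay above the other 4, by a small margin. Nsdhl, a sterol dehydrogenase of the demethylation that follows, had 1356.7 and 829.0 with estradiol, 1398.9 and 1018.9 after withdrawal, and 1402.5 and 990.8 with doxycycline in its brightest probe set, 98631_g_at. As with Idi1, the TRIzol array was the lower one in each group.

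The other Nsdhl probe sets differed from each other in this respect. Probe set 98630_at had 512.6 and 310.8 with estradiol, 491.1 and 358.2 after withdrawal, and 613.5 and 439.3 with doxycycline, and again separated the TRIzol from the RNeasy arrays. Probe set 93868_at had 447.7 and 368.0, 460.4 and 472.2, and 449.9 and 392.2 in the same order of groups, with no such separation. Sc5d, the sterol desaturase that acts near the end of the pathway, was dim: 102768_i_at had 40.1 and 61.9 with estradiol, 39.9 and 111.5 after withdrawal, and 39.7 and 31.0 with doxycycline. The second Sc5d probe set, 102769_f_at, had 21.7 and 52.6 with estradiol, 31.0 and 93.8 after withdrawal, and 66.1 and 23.9 with doxycycline. Withdrawal replicate 2 was the highest array in both Sc5d probe sets.

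**Figure D1:**
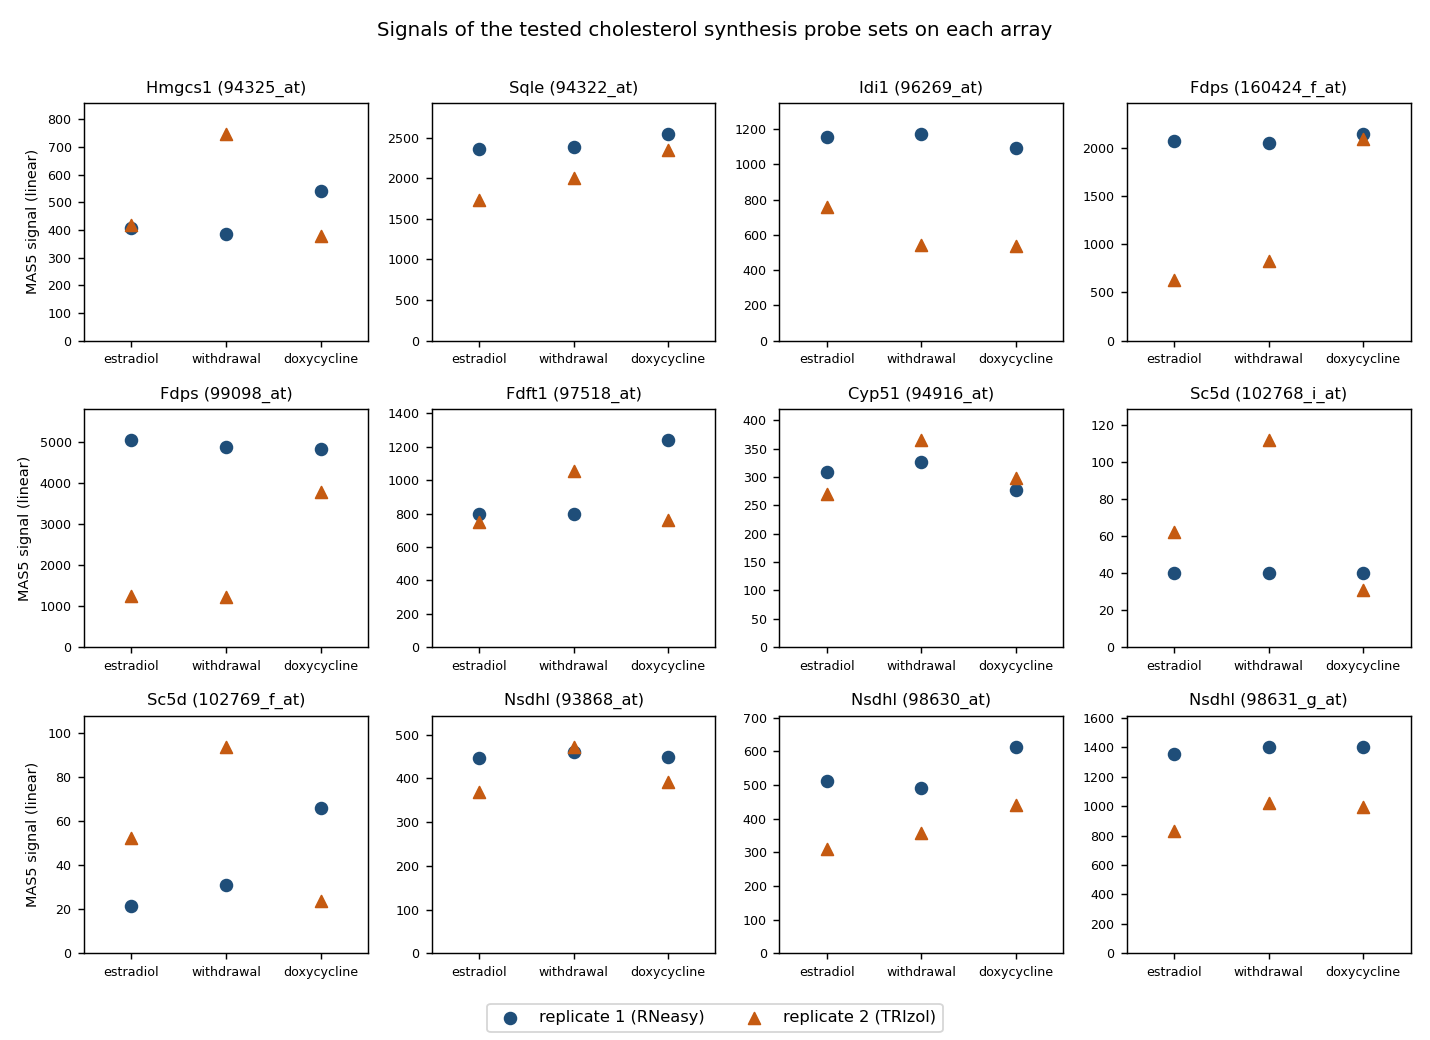
MAS5 signal (linear scale from 0) of the 12 tested probe sets of the 8 genes, with the estradiol, withdrawal and doxycycline groups from left to right in each panel. Circles are replicate 1 (RNeasy) and triangles replicate 2 (TRIzol). Fdps falls into 4 high and 2 low arrays, Idi1 and the Nsdhl probe sets 98630_at and 98631_g_at separate circles from triangles, and Cyp51 stays between 269.4 and 364.5.

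The first comparison, withdrawal against doxycycline, asks what the oncogenes change. None of the 8 genes passed the test. Over the 8 genes, each by its brightest probe set, the median log2 fold change was 0.04, beside 0.01 over all 7453 tested probe sets. Estimates were above 0 for 5 of the 8 genes, against 51.8% of all tested. The median was -0.22 without doxycycline replicate 2, the array whose title also names estradiol, and 0.26 without doxycycline replicate 1. The log2 fold changes are differences of log2(signal + 32), which understates changes of dim probe sets such as those of Sc5d. Limma called 0 of the 12 member probe sets at an adjusted p under 0.05, and 0% of all tested. At an unadjusted p under 0.05 there were 0 of 12 against 4.37% of all tested, and 0 of 12 estimates reached 2-fold against 1.84%.

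Among single genes, the estimate with the largest size was that of Fdps at -0.79 (SE 0.74, 95% interval -2.49 to 0.91), with 0.01 between the RNeasy arrays and -1.60 between the TRIzol arrays. Leaving out withdrawal replicate 2 gave 0.19, and leaving out withdrawal replicate 1 gave -1.77. Sc5d stood at 0.60 (SE 0.35, interval -0.21 to 1.41), with 0.00 in replicate 1 and 1.19 in replicate 2, and at 0.10 without withdrawal replicate 2. For both genes the replicate 1 arrays gave a difference near 0.

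Hmgcs1 and Fdft1 had opposite signs in the 2 replicates. Hmgcs1 stood at -0.45 in replicate 1 and 0.93 in replicate 2 (estimate 0.24, SE 0.36), and Fdft1 at -0.62 and 0.46 (estimate -0.08, SE 0.33). Without withdrawal replicate 2 Hmgcs1 stood at -0.21. Cyp51 was 0.24 (SE 0.26, interval -0.35 to 0.83), with like values of 0.21 and 0.27 in the replicates and 0.17 to 0.31 when any 1 array was left out. Sqle stood at -0.16 (SE 0.29), Idi1 at 0.06 (SE 0.47) and Nsdhl at 0.02 (SE 0.35). The intervals of Sqle, Fdft1, Cyp51 and Nsdhl, 4 of the 8 genes, lay wholly inside a 2-fold change in either direction. The other 4 did not allow that statement in this fit, which does not pair the arrays by replicate number.

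Groups without overlap were seen in 3 member probe sets in the higher direction (Cyp51, Sc5d 102768_i_at and Nsdhl 93868_at) against 16.8% of all tested, and in 1 in the lower direction (Fdps 160424_f_at) against 15%. The 2 probe sets of Sc5d and the 3 of Nsdhl read the same genes and are not independent, and Sc5d 102768_i_at was apart by 39.9 against 39.7 in its closest arrays.

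The second comparison, estradiol against withdrawal, asks what active IRF-1 changes while the oncogenes are on. The median over the 8 genes was -0.20, beside 0.01 over all tested probe sets, with estimates above 0 for 2 of 8 genes against 51% of all tested. Limma called 0 of 12 member probe sets and 0% of all. In replicate 1 the 8 genes lay between -0.07 and 0.07, where 16 probe sets in all reached a 2-fold difference. In replicate 2 they lay between -0.79 (Hmgcs1) and 0.46 (Idi1), with a median of -0.34.

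Estimates were -0.36 (SE 0.36) for Hmgcs1, -0.30 (SE 0.35) for Sc5d, -0.24 (SE 0.33) for Fdft1 and -0.23 (SE 0.26) for Cyp51. With withdrawal replicate 2 left out these were 0.08 for Hmgcs1, 0.20 for Sc5d, -0.04 for Fdft1 and -0.16 for Cyp51. Nsdhl stood at -0.16 (SE 0.35), Sqle at -0.11 (SE 0.29) and Idi1 at 0.22 (SE 0.47). Fdps stood at 0.03 (SE 0.74), with 0.05 in replicate 1 and 0.01 in replicate 2, although its level differed about 4-fold between those replicates. Of the 12 probe sets, 2 had groups without overlap, both lower (Cyp51 and Nsdhl 93868_at), against 10.2% of all tested, and 0 were higher, against 11.5%. At an unadjusted p under 0.05 there were 0 of 12 against 0.698%, and 0 of 12 estimates reached 2-fold against 0.778%.

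The third comparison, estradiol against doxycycline, sets oncogenes on with active IRF-1 against oncogenes off, and shares its arrays with the first and the second. The median over the 8 genes was -0.14, beside 0.00 over all tested probe sets, with estimates above 0 for 3 of 8 genes against 50.5% of all tested. It was -0.34 without doxycycline replicate 2, 0.06 without doxycycline replicate 1 and 0.10 without estradiol replicate 2. Limma called 0 of 12 member probe sets and 0% of all, and 0 of 12 had an unadjusted p under 0.05 against 13.9% of all tested. At least 2-fold were 0 of 12 estimates against 7.31%. Fdps stood at -0.76 (SE 0.74), with 0.06 in replicate 1 and -1.58 in replicate 2, and at 0.24 without estradiol replicate 2. Fdft1 stood at -0.32 (SE 0.33), Sc5d at 0.29 (SE 0.35), Idi1 at 0.28 (SE 0.47) and Sqle at -0.26 (SE 0.29). Nsdhl stood at -0.15 (SE 0.35), Hmgcs1 at -0.12 (SE 0.36) and Cyp51 at 0.01 (SE 0.26, interval -0.58 to 0.60). The groups did not overlap in 1 probe set in the higher direction (Sc5d 102768_i_at) against 27% of all tested and in 1 in the lower direction (Fdps 160424_f_at) against 24.7%.

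**Figure D2:**
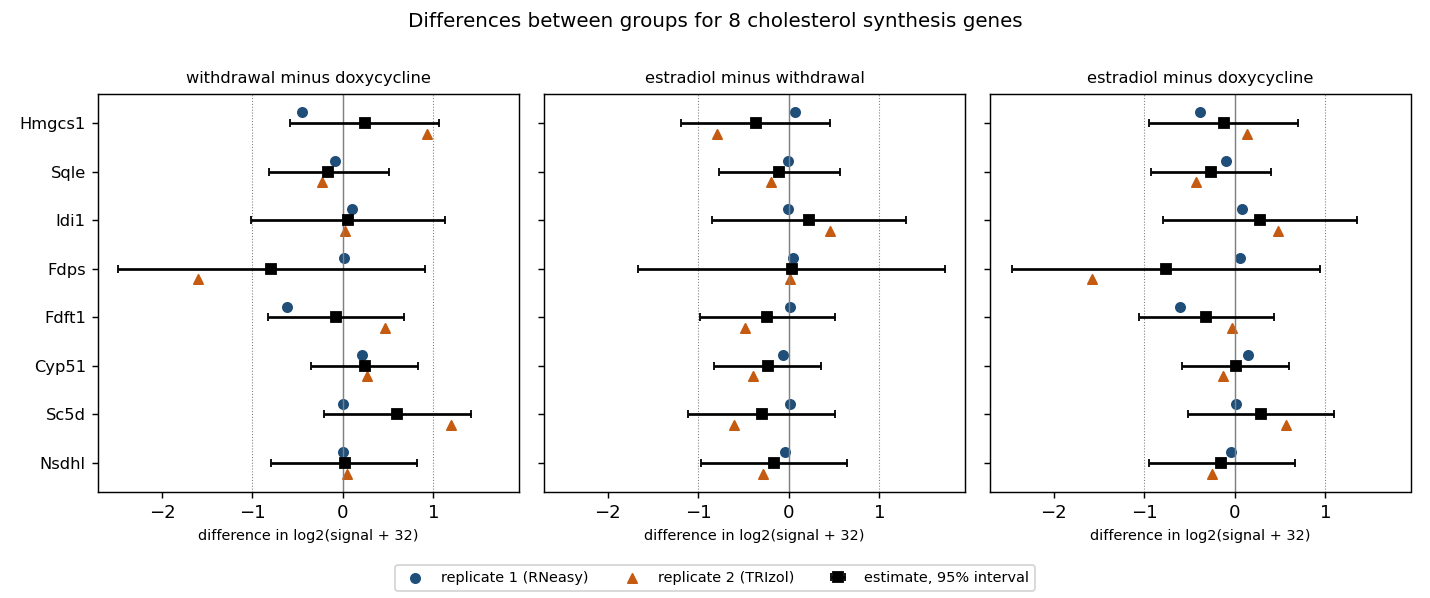
Differences in log2(signal + 32) between groups for the 8 genes, each by its brightest probe set, with genes in rows and 1 panel per comparison. Squares with bars are limma estimates with 95% intervals, circles and triangles are the differences within replicate 1 (RNeasy) and replicate 2 (TRIzol), and dotted lines mark a 2-fold change. Every interval includes 0, and the circles of the middle panel lie between -0.07 and 0.07.

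The difference between the replicate numbers was compared next, a comparison chosen after the values had been seen. RNeasy and TRIzol go with replicates 1 and 2 in every group, so the extraction and anything else that differed between the replicates cannot be told apart. Over the 12 member probe sets the median log2 difference of TRIzol minus RNeasy was -0.20, with 8 lower and 4 higher, beside 0.01 over all tested probe sets. The TRIzol arrays all lay below the RNeasy arrays in 5 of 12 probe sets (Sqle, Idi1, Fdps 99098_at, Nsdhl 98630_at and 98631_g_at), against 6.75% of all tested, and all above in 0 of 12, against 7.69%. Limma, with the group means in the model, called 0 of 12 and 0% of all. At an unadjusted p under 0.05 there were 5 of 12 against 8.76%. These were Idi1, both tested Fdps probe sets, and Nsdhl 98630_at and 98631_g_at. Probe sets of the same gene are not independent, here and in the count of arrays lying below.

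Idi1 stood at -0.88 (SE 0.23, interval -1.41 to -0.36), with -0.59 in the estradiol, -1.06 in the withdrawal and -0.99 in the doxycycline group. Nsdhl 98631_g_at stood at -0.54 (SE 0.21), with -0.69, -0.44 and -0.49 in the same groups. Fdps 99098_at stood at -1.44 (SE 0.33), but here the groups were unlike: -2.00 with estradiol, -1.96 after withdrawal and -0.35 with doxycycline. Fdps 160424_f_at gave -1.68, -1.29 and -0.03 in the same order. By contrast, Sc5d 102768_i_at stood at 0.40 (SE 0.26), with 0.38, 1.00 and -0.19, and Cyp51 at 0.02 (SE 0.22).

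With the doxycycline arrays left out, limma called 153 of 7453 probe sets between TRIzol and RNeasy (2.05%), among them 2 of 12 member probe sets, both of Fdps. In that fit Fdps 99098_at fell by 1.98 on the log2 scale (SE 0.26, adjusted p = 0.00345) and 160424_f_at fell by 1.48 (SE 0.30, adjusted p = 0.0267) on the TRIzol arrays, lower in both of 2 groups. The RNeasy arrays of those groups are the pair that differed in 16 probe sets, so they add little to the spread behind these p-values. The doxycycline group left out is the one where Fdps differed least, at -0.35 for 99098_at and -0.03 for 160424_f_at. This split was made after the values had been seen, and its p-values do not measure the variation between separate cultures. Without the estradiol or without the withdrawal arrays limma called 0.

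**Figure D3:**
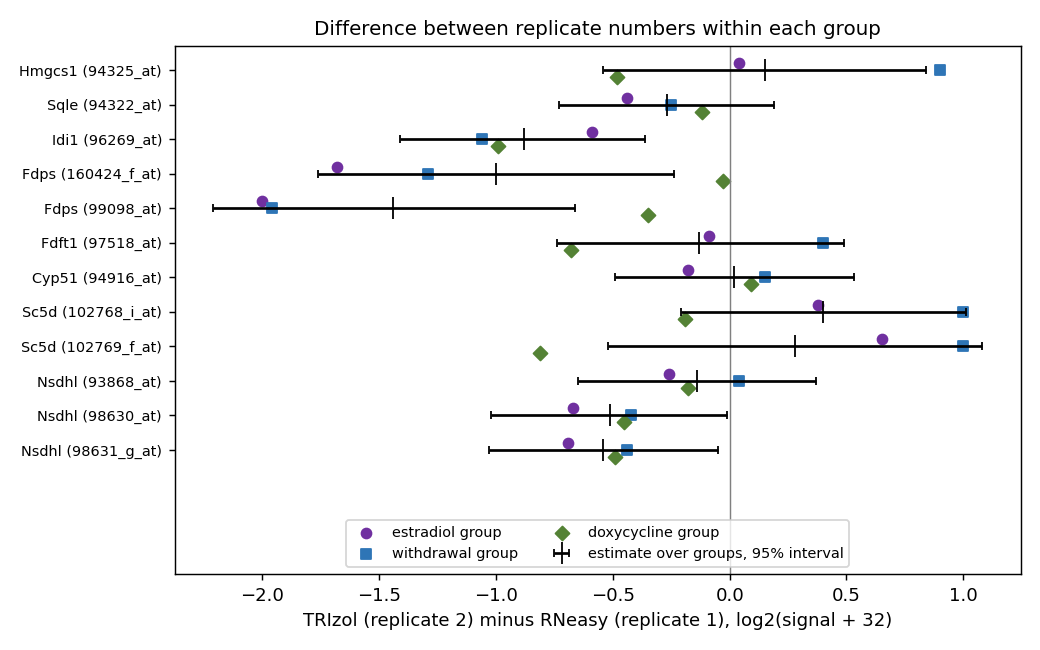
TRIzol (replicate 2) minus RNeasy (replicate 1) in log2(signal + 32) for the 12 tested member probe sets. Coloured points are the differences within the estradiol, withdrawal and doxycycline groups, and bars are limma estimates over the groups with 95% intervals. Idi1 lies left of 0 in all 3 groups, while Fdps is far left in the estradiol and withdrawal groups and nearer 0 with doxycycline.

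The members did not share 1 pattern over the arrays. Their mean log2 signal, centred gene by gene, was 0.13 and -0.31 with estradiol, 0.13 and -0.03 after withdrawal, and 0.24 and -0.16 with doxycycline, a span of 0.55. The root mean square difference from this mean was 0.11 for Sqle and Nsdhl, 0.21 for Cyp51, 0.22 for Fdft1, 0.35 for Hmgcs1, 0.36 for Idi1, 0.48 for Sc5d and 0.77 for Fdps. The other genes closest to the mean pattern by this measure, over the 6 arrays, were Cnot8 (0.055), Yju2 (0.056), Ksr1 (0.059), Akr1a1 (0.062) and C5ar1 (0.062), against a median of 0.343 over 6727 probe sets of other named genes.

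The genes of the further lists are named by their smallest unadjusted p, and their values do not stand for a list. Counts, medians and names use the brightest tested probe set of each gene. Over all tested probe sets an unadjusted p under 0.05 was reached by 4.37%, 0.698% and 13.9%, and estimates were above 0 for 51.8%, 51% and 50.5%, in the order of the comparisons above. Of 13 further sterol synthesis enzymes on a list, 9 had a tested probe set, and 0 passed in any comparison (0, 0 and 1 at an unadjusted p under 0.05). Their median was 0.30 for withdrawal against doxycycline (7 higher, 2 lower), -0.14 for estradiol against withdrawal (2 higher, 7 lower) and 0.26 for estradiol against doxycycline (5 higher, 4 lower). Against doxycycline the RNeasy arrays gave 0.12 after withdrawal and 0.05 with estradiol, and the TRIzol arrays 0.65 and 0.26. Centred on each gene's mean, the list stood at 0.04 on doxycycline replicate 1 and -0.36 on doxycycline replicate 2. Lss, the cyclase that makes lanosterol, had signals of 695.1 and 719.2 with estradiol, 590.8 and 714.4 after withdrawal, and 539.9 and 384.9 with doxycycline, and both doxycycline arrays were the lowest. Its log2 fold changes were 0.48 (SE 0.29) for withdrawal against doxycycline and 0.60 (SE 0.29) for estradiol against doxycycline.

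Dhcr7, the reductase of the final step, had 110.2 and 174.0 with estradiol, 111.6 and 172.6 after withdrawal, and 90.5 and 84.8 with doxycycline, and again both doxycycline arrays were the lowest. Mvd, mevalonate diphosphate decarboxylase, had 349.8 and 366.1, 353.0 and 471.9, and 365.1 and 194.2 in the same order of groups, with doxycycline replicate 2 standing low. Lbr, a sterol reductase that is also a receptor of the nuclear lamina, had 482.8 and 560.9 with estradiol, 489.3 and 223.1 after withdrawal, and 237.6 and 166.2 with doxycycline. Its estimate of 1.26 (SE 0.38) for estradiol against doxycycline had an adjusted p of 0.257 with limma.

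Regulators and uptake genes were measured in smaller numbers. Of 7 SREBP control genes 2 were tested, with 0 called and 0 at an unadjusted p under 0.05 in each comparison. Srebf1, which encodes SREBP-1, had 322.5 and 383.0 with estradiol, 332.0 and 393.3 after withdrawal, and 360.1 and 424.7 with doxycycline, and its 3 estimates lay between -0.14 and -0.04. Mbtps1, the protease that starts the release of SREBP from its membrane, had 390.4 and 359.0 with estradiol, against 581.4 and 520.9 after withdrawal and 491.4 and 598.6 with doxycycline. Both estradiol arrays were below the other 4, with -0.52 (SE 0.27, adjusted p = 1.00) against withdrawal by limma.

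Of 11 genes of cholesterol uptake and trafficking 6 were tested, with 0 called (1, 0 and 1 at an unadjusted p under 0.05), and their medians were -0.18, -0.41 and -0.60 in the 3 comparisons as ordered above (2, 1 and 1 of the 6 higher). The RNeasy arrays gave -0.68, 0.02 and -0.63 and the TRIzol arrays 0.05, -0.87 and -0.54, so the first and the second median each came from 1 replicate number. Npc2, the lysosomal cholesterol carrier, had signals of 2685.5 and 1519.3 with estradiol, 2689.2 and 3102.5 after withdrawal, and 4925.1 and 6249.0 with doxycycline. The doxycycline arrays were the highest, with -1.44 (SE 0.34, adjusted p = 0.255) for estradiol against doxycycline and -0.93 (SE 0.34, adjusted p = 0.925) for withdrawal against doxycycline by limma. Lrp1, a large endocytic receptor of the lipoprotein receptor family, stood at -0.92 (SE 0.45), the late endosomal sterol-binding protein Stard3 at -0.51 (SE 0.26) and the HDL receptor Scarb1 at 0.56 (SE 0.32) for estradiol against doxycycline. Of 11 genes of efflux, esters and oxysterols, 6 had a probe set and 5 of these were too dim to test. The 1 tested, Abcg1, a sterol exporter, had signals of 10.4 to 52.8.

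Of 10 non-sterol isoprenoid enzymes 5 were tested, with 0 called (1, 0 and 1 at an unadjusted p under 0.05). In each comparison 3 were higher and 2 lower, with medians of 0.12, 0.19 and 0.43, which were 0.43, -0.18 and 0.46 between the RNeasy arrays and -0.11, 0.22 and 0.38 between the TRIzol arrays. Fntb, the beta subunit of the farnesyltransferase that modifies Ras, had 66.1 and 101.7 with estradiol, 55.9 and 82.6 after withdrawal, and 31.0 and 20.2 with doxycycline. Both doxycycline arrays were the lowest, and limma gave 0.81 (SE 0.28, adjusted p = 0.925) for withdrawal against doxycycline and 1.00 (SE 0.28, adjusted p = 0.255) for estradiol against doxycycline. Fnta, the alpha subunit of that enzyme, stood at -0.32 (SE 0.36) and -0.51 (SE 0.36) in the same comparisons. The subunits of the prenyltransferase that modifies Rab proteins, Rabggta and Rabggtb, stood at 0.43 (SE 0.49) and 0.44 (SE 0.38) for estradiol against doxycycline.

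Fatty acid synthesis draws on the same acetyl-CoA, and 8 of 11 listed genes were tested, with 0 called (1, 0 and 3 at an unadjusted p under 0.05). Their medians were 0.34, -0.01 and 0.41 in the 3 comparisons, against 0.04, -0.20 and -0.14 for the 8 cholesterol genes, and the difference between the lists was not tested. Estimates were above 0 for 7, 4 and 5 of the 8. The RNeasy arrays gave medians of -0.21, 0.04 and -0.17 and the TRIzol arrays 0.78, -0.07 and 0.81, so the positive medians against doxycycline came from replicate 2 alone. The list stood at 0.02 on doxycycline replicate 1 and at -0.37 on doxycycline replicate 2. Acly, which makes cytosolic acetyl-CoA, had 1881.4 and 1583.3 with estradiol, 1737.5 and 1919.9 after withdrawal, and 905.0 and 710.9 with doxycycline. The elongase Elovl6 had 394.5 and 397.8 with estradiol, 393.4 and 221.5 after withdrawal, and 203.8 and 121.6 with doxycycline. For both genes the doxycycline arrays were the lowest, with 1.08 (SE 0.28) for Acly and 1.17 (SE 0.34) for Elovl6 for estradiol against doxycycline, and 1.16 (SE 0.28) and 0.79 (SE 0.34) for withdrawal against doxycycline. The synthase Fasn stood at 0.74 (SE 0.46) and the malic enzyme Me1 at 0.90 (SE 0.37) for estradiol against doxycycline. The 4 genes of the list not named by the rule stood between -0.47 (Scd1) and 0.08 (Elovl5) in that comparison.

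Of 19 tested cell division genes, all 19 had estimates above 0 in each comparison, with medians of 0.91, 0.69 and 1.61. Limma called 0 in each, and an unadjusted p under 0.05 was reached by 7, 1 and 17 of them, against the 4.37%, 0.698% and 13.9% of all tested. In the second comparison the RNeasy arrays gave a median of 0.05 and the TRIzol arrays 1.32. Mki67, a protein of dividing cells, had signals of 277.4 and 355.1 with estradiol, 243.8 and 129.8 after withdrawal, and 65.0 and 31.3 with doxycycline (2.14, SE 0.35, for estradiol against doxycycline, adjusted p = 0.255 by limma). The replication clamp Pcna stood at 1.88 (SE 0.38), the mitotic kinase Aurka at 1.68 (SE 0.38) and the mitotic survival factor Birc5 at 1.61 (SE 0.38) in the same comparison, each with an adjusted p of 0.255 by limma. Centred on each gene's mean, the cell division median was 0.67 and 0.78 with estradiol, 0.62 and -0.55 after withdrawal, and -0.36 and -1.22 with doxycycline. The median of the 8 cholesterol genes was 0.06 and -0.20, 0.10 and 0.04, and 0.24 and -0.20 on the same arrays. The part of cell division in the cholesterol values was not tested.

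**Figure D4:**
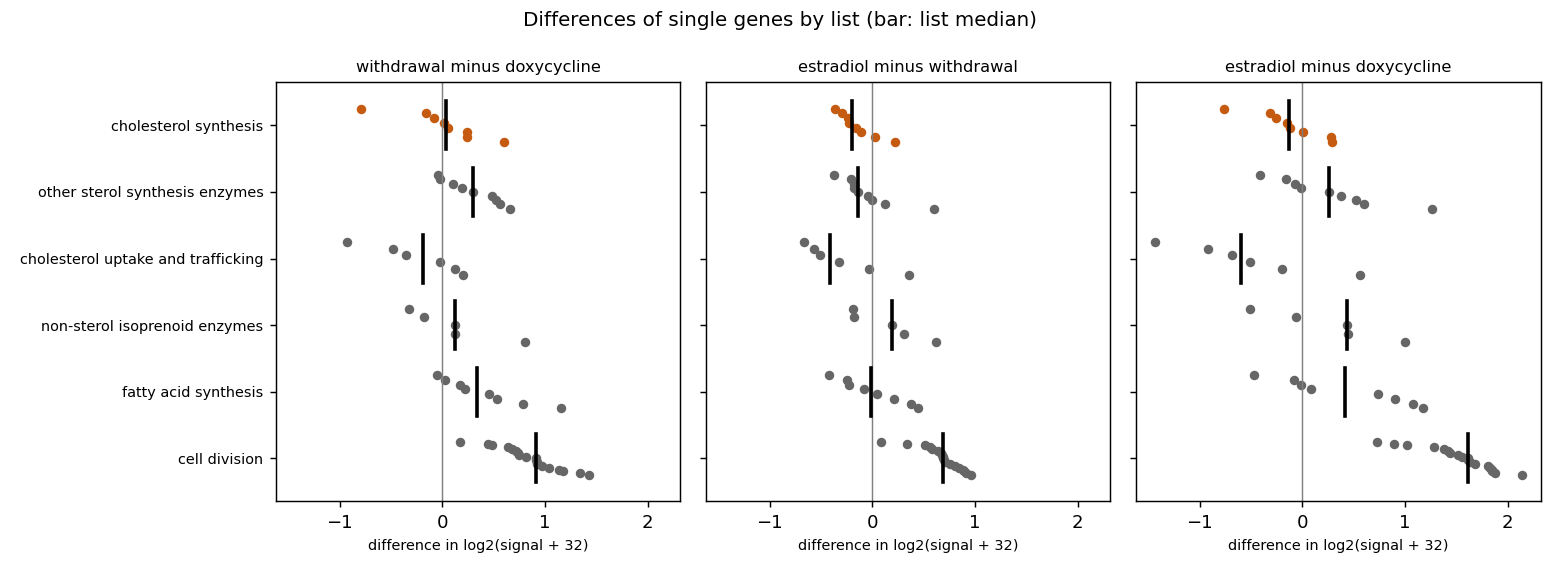
Differences in log2(signal + 32) of single genes in 6 lists, each gene by its brightest probe set, with 1 panel per comparison. Points are genes, bars are list medians, and the 8 cholesterol synthesis genes are coloured. The coloured medians are 0.04, -0.20 and -0.14 from the left panel to the right, and the cell division medians are 0.91, 0.69 and 1.61.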

How the data were processed

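The submitters' processing notes name MAS5, without a version or settings, as the tool behind the deposited intensities, which are linear and not log-transformed. Biotinylated cRNA from total RNA was hybridised, per the labels' protocols. Trimmed means, with 2% left out at each end, were 149.994 to 150.304. Each array was scaled to a common trimmed mean (factors 0.999192 to 1.00126) and turned into log2(signal + 32). The 66 control probe sets and the lowest 40% by mean log2 signal (below about 29) were left out. Limma 3.58.1 in R 4.3.3 fitted 1 mean per group over all 6 arrays, with an intensity trend, 3 residual and 5.22 prior degrees of freedom, two-sided p-values and Benjamini-Hochberg adjustment over 7453 probe sets at 0.05. The fit was tested on simulated data whose arrays varied independently of each other. That test therefore does not cover the linked deviations given below.

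Gene names came from the platform annotation, updated through Entrez identifiers (0 changed). Of the probe sets other than controls, 10833 had 1 symbol, 396 several and 1193 none, and only those with 1 were named. The probe set with the highest mean log2 signal stood for a gene. The members and lists were chosen with earlier results of these data known. From each further list up to 4 genes with the smallest unadjusted p were named, and the 5 most alike in pattern. Replicate numbers go with the extraction method in the labels, which pairs the arrays. Deviations from the group means correlated at 0.449 between the withdrawal and estradiol groups, -0.00732 between doxycycline and withdrawal and -0.0283 between doxycycline and estradiol. Promoter sequences came from RefSeq. The number of arrays limits the precision of every value. Alternatives were other pseudocounts, no filter, quantile normalization, a replicate block, no trend, the mean of a gene's probe sets and each array left out in turn.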

Additional observations from a re-analysis of the deposited data

How the results depend on the processing

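None of the 12 member probe sets was called by limma in any of the 3 comparisons under any of the 12 refitted alternatives, with a smallest adjusted p of 0.264 over 432 values. The replicate block called 0 probe sets in each comparison, so it changed no call. Every group holds both replicate numbers, so this block can move only SEs and p-values. The member medians of 0.04, -0.20 and -0.14 therefore could not change. Over all genes, limma called up to 26 probe sets for withdrawal against doxycycline (without doxycycline replicate 1, otherwise 0), up to 17 for estradiol against withdrawal (without withdrawal replicate 1, otherwise 0) and 0 to 133 for estradiol against doxycycline (28 when doxycycline replicate 1 was left out, 131 for withdrawal replicate 1 and 133 for withdrawal replicate 2), and in every other setting 0 in each comparison. Between TRIzol and RNeasy it called 153 without the doxycycline arrays, in place of 0. The member median lay between -0.22 and 0.26 for withdrawal against doxycycline, between -0.33 and -0.01 for estradiol against withdrawal and between -0.34 and 0.10 for estradiol against doxycycline when 1 array was left out. The lows of -0.22 and -0.34 were those without doxycycline replicate 2. The sign of a gene's estimate changed in 28 of 144 values with 1 array left out. The 144 include values where the array left out belonged to the group outside the comparison. Those estimates could not change, so 28 of 144 understates how often an array mattered. For withdrawal against doxycycline the ranges of the genes whose sign changed were Hmgcs1 from -0.21 to 0.69, Idi1 from -0.47 to 0.59, Fdps from -1.77 to 0.19, Fdft1 from -0.42 to 0.26 and Nsdhl from -0.23 to 0.26. For estradiol against withdrawal the ranges of the genes whose sign changed were Hmgcs1 from -0.81 to 0.08, Sqle from -0.33 to 0.11, Idi1 from -0.31 to 0.75, Fdps from -0.97 to 1.03, Sc5d from -0.80 to 0.20 and Nsdhl from -0.51 to 0.18. For estradiol against doxycycline the ranges of the genes whose sign changed were Hmgcs1 from -0.36 to 0.12, Idi1 from -0.21 to 0.78, Fdps from -1.76 to 0.24, Fdft1 from -0.66 to 0.02, Cyp51 from -0.08 to 0.10 and Nsdhl from -0.49 to 0.20. The cause was not tested. Among 168 values of the other alternatives the sign changed in 3. With the mean of a gene's probe sets, Nsdhl stood at -0.04 for withdrawal against doxycycline and Fdps at -0.07 for estradiol against withdrawal. With quantile normalization, Cyp51 stood at -0.03 for estradiol against doxycycline. No filter, no trend and the replicate block cannot move an estimate, so their values among the 168 could not change sign. In the main fit, with 2 arrays per group and no replicate block, 4 of the 8 genes had intervals reaching past a 2-fold change in each comparison. With the block the SE of Idi1 was 0.28 in place of 0.47, and that of Fdps 0.41 in place of 0.74. The SE of Hmgcs1 stayed at 0.36 and that of Cyp51 went from 0.26 to 0.27. Intervals were not worked out with the block, so the count of 4 holds for the main fit alone.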
